A study of Mus musculus with 2 samples.

Results

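The mitochondrial death pathway and its p53 branch were followed here through 38 mouse genes chosen by name and grouped by role. They were 8 BH3-only proteins, 3 pore-forming effectors, 4 anti-apoptotic BCL2 proteins, 8 caspases and partners of the apoptosome, p53 with its MDM regulators (3 genes), and 12 p53 targets. A probe set with a single gene symbol was found for 36 of the 38 genes, of 18161 genes in all, and these 36 genes had 89 probe sets. Bax and Trp53, which encode the effector BAX and p53 itself, were not analysed here.

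The siCPEB1 culture was Neuro2a cells, a mouse neuroblastoma line, transfected with an siRNA against the coding region of Cpeb1, and the siControl culture was the same line given a control siRNA. CPEB1 is an RNA-binding protein that regulates mRNAs after transcription through cytoplasmic polyadenylation elements. Both cultures had 24 h of siRNA, and 100 ng of total RNA from each went onto 1 Affymetrix mouse array, so the comparison addresses which mRNAs differ after Cpeb1 knockdown. Each group is 1 transiently transfected culture on 1 array, every ratio below compares these arrays without a replicate check, and no p-value is given. The arrays of siFMR1-transfected cells were not analysed here.

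BCL2 family proteins set the integrity of the outer mitochondrial membrane. BH3-only proteins sense stress and either bind the anti-apoptotic members or activate BAX and BAK, which then form pores that release cytochrome c and DIABLO. Cytochrome c assembles APAF1 and caspase-9 into the apoptosome, while XIAP holds caspases back until DIABLO binds it. p53 switches on genes of both arms as well as genes of cell cycle arrest and repair, and MDM2 and MDM4 restrain p53. Neuroblastoma cells often keep an intact p53 gene, and sympathetic neurons deprived of growth factor are a classical setting in which BH3-only proteins such as BIM and HRK act.

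The signals are MAS5 values, background-subtracted by the authors and scaled per array. The median over 45101 probe sets was 21.64 in siCPEB1 and 21.05 in siControl, and log2 ratios of siCPEB1 over siControl were shifted by -0.04 to set these medians equal. A probe set was counted as measured when it reached the array median on at least 1 array and the 25th percentile on the other, and one that passed on the strength of a single array therefore had to differ. The knockdown was visible on the arrays, where Cpeb1 had a signal of 38.5 in siCPEB1 and 302 in siControl, 8.08-fold lower. Of 16 sympathetic neuroblastoma markers, 13 were at or above the array median on both arrays, with summed signals of 18917 in siCPEB1 and 14958 in siControl, whereas Th, Nefl and Nefm were below it on both. These sums are carried by bright markers such as Hand2. The median log2 ratio of the 13 was 0.98, with 6 more than 2-fold higher in siCPEB1 and 0 more than 2-fold lower. The neuronal transcription factor Isl1 had 1036 in siCPEB1 and 224 in siControl (4.49-fold), the nicotinic receptor subunit Chrna3 had 736 in siCPEB1 and 166 in siControl (4.31-fold), and Gata3 had 172 in siCPEB1 and 46.0 in siControl (3.63-fold). Against these, 3 of the 13 were below 0, Gata2 (-0.53), Gap43 (-0.37) and Stmn2 (-0.34), and Tubb3 (0.12) and Uchl1 (0.14) were nearly level. Some of the line's own neuronal markers therefore also differed between the arrays. Summed marker signals were 424 in siCPEB1 and 206 in siControl for fibroblasts (3 of 8 markers at the median on both arrays, with Col1a1, Col3a1, Dcn, Lum and Thy1 below it on both), and 185 in siCPEB1 and 85.2 in siControl for endothelium (1 of 5, with Cdh5, Kdr and Tek below it). They were 110 in siCPEB1 and 84.5 in siControl for haematopoietic cells (1 of 7, with Ptprc, Cd68, Lyz2, Itgam and Cd3e below it) and 135 in siCPEB1 and 114 in siControl for glia (1 of 6, with Gfap, S100b, Sox10, Aqp4 and Aldh1l1 below it). Single markers of these lists past 2-fold were Col1a2, with 309 in siCPEB1 and 42.3 in siControl (7.11-fold higher), Pdgfrb, with 26.9 in siCPEB1 and 97.1 in siControl (3.72-fold lower), and Vwf and Tyrobp, whose siControl signals were below the array median and which were at least 3.59-fold and at least 1.06-fold higher with siControl set at it. Their part in the results was not tested, and a lower signal from fewer expressing cells cannot be told apart from less mRNA per cell.

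Most of the pathway differed little between the arrays, with a few genes standing out in each direction. Bik, Bmf and Zmat3 were more than 2-fold higher in siCPEB1, and Gadd45a and Xiap more than 2-fold lower. These were 3 higher and 2 lower of 31 measured genes, while 4.56% of all 11546 measured genes were higher and 3.91% lower. At 1.5-fold, 7 genes were higher (Bik, Bmf, Zmat3, Bcl2l11, Bad, Casp8 and Hrk) and 4 were lower (Gadd45a, Xiap, Ei24 and Mdm4), and across all genes the shares were 11.9% higher and 12.1% lower. The median log2 ratio was -0.06 over the 31 genes and 0.01 over all genes, whose 5th percentile was -0.90 and 95th was 0.96. By probe set, 5 of 60 measured ones were more than 2-fold higher (4.1% of all) and 3 lower (4.54% of all), and with so few genes a difference of 1 or 2 separates these counts from the background shares.

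**Figure D1:**
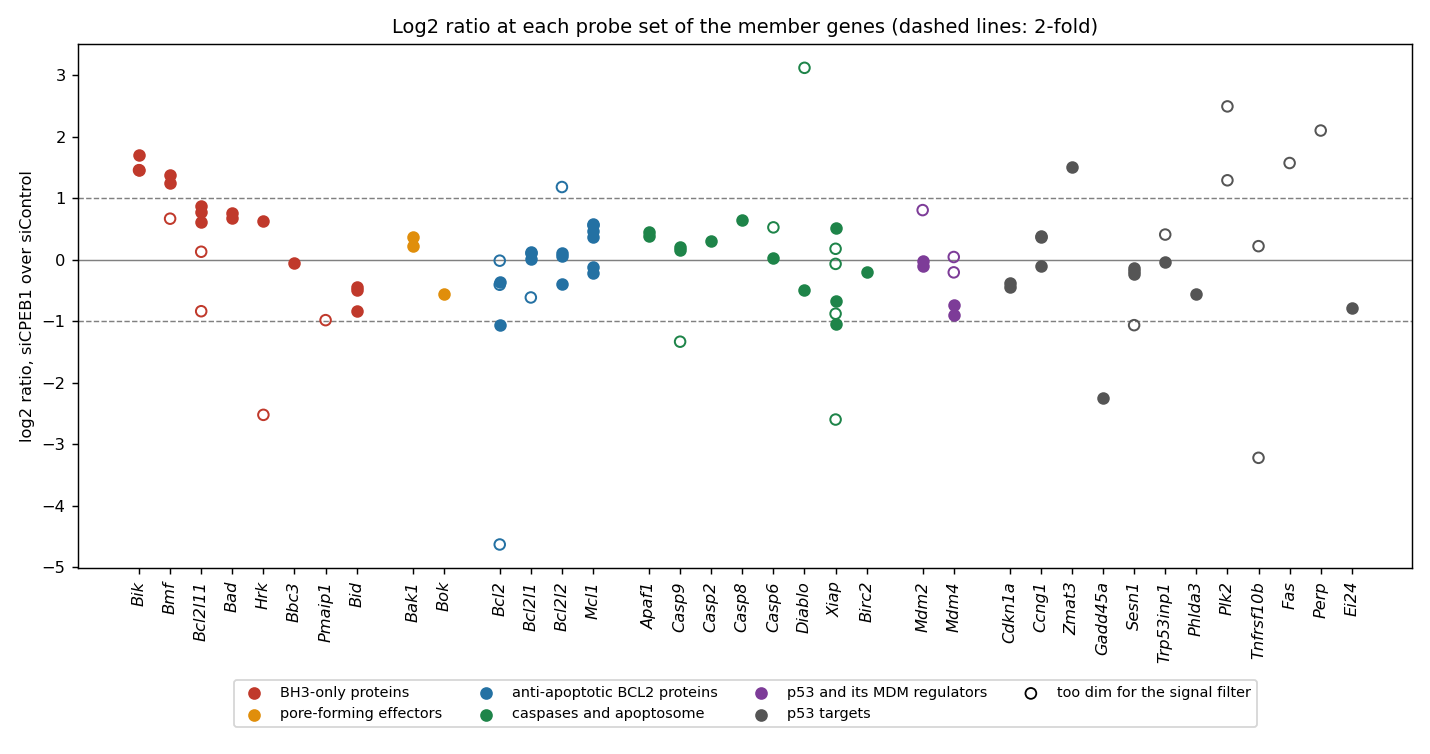
Log2 ratio of siCPEB1 over siControl (y axis) at each probe set of the 36 genes (x axis, grouped by role), with filled points for measured probe sets, open points for probe sets too dim for the signal filter, and dashed lines at 2-fold. Filled points of Bik, Bmf and Zmat3 lie above the upper line and Gadd45a lies lowest of the filled points at -2.24, while the widest excursions are open points.

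With 1 array a group, no spread between cultures could be measured. Over 18 hybridization control probe sets, the mean log2 ratio was -0.17 and the SD 0.075. The spread used here is that between probe sets of the same gene. Its pooled SD was 0.37 on the log2 scale over 14949 probe sets of 5533 genes, and 0.31 over 47 probe sets of the 18 genes described here with at least 2 measured. The SD depended on brightness and was 0.64 among the dimmest of 10 equal classes of signal and 0.21 among the brightest. This spread also holds true differences between transcripts of a gene, and it does not cover the difference between cultures. All measured probe sets of a gene had the same sign of ratio in 14 of these 18 genes (77.8%) and in 3512 of 5533 genes overall (63.5%). The filter fixed part of this agreement, since a probe set that passed through 1 array alone had to be higher on that array. Among the 14 genes this holds for both measured probe sets of Bik and for 1 each of Bmf and Bcl2. The shares are therefore no measure of reproducibility.

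The BH3-only genes had the highest median ratio of the 6 role groups, though not of all lists, since the 13 neuroblastoma markers had a median of 0.98 and the 2 measured endothelial markers one of 1.37. The part of these markers in the BH3-only ratios was not tested. Of 8 genes, 7 were measured, 5 of these were more than 1.5-fold higher in siCPEB1 and none was more than 1.5-fold lower, with a median log2 ratio of 0.77. Among these 7, Bik and the probe set standing for Bmf reached the array median in siCPEB1 alone. With signals required at the median on both arrays, 4 of 6 BH3-only genes were more than 1.5-fold higher, where 9.3% of 10709 genes were, and their median was 0.70. Without any filter, 5 of all 8 were more than 1.5-fold higher and 1 was lower, again with a median of 0.70, where 20.5% of 18161 genes were higher and 18.2% lower.

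Bik encodes a BH3-only protein of the endoplasmic reticulum membrane. Its 3 probe sets gave signals of 25.05, 37.9 and 17.9 in siCPEB1, against 8.84, 11.4 and 6.35 in siControl. All 3 were higher in siCPEB1, but every siControl signal was below the array median and the weakest probe set was below it on both arrays. The measured probe sets gave log2 ratios of 1.46 (1420362_a_at, 2.76-fold) and 1.70 (1449836_x_at, 3.24-fold). Taking a siControl signal no lower than the array median, Bik was at least 1.16-fold and at least 1.749-fold higher at these probe sets, and the spread between probe sets at such dim signals had an SD of 0.64.

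Bmf encodes a BH3-only protein that is tied to the cytoskeleton until it is released. Its brightest probe set, 1454880_s_at, had a signal of 175 in siCPEB1 and 65.4 in siControl, a log2 ratio of 1.38 (2.59-fold higher). A further probe set, 1422995_at, had 31.8 in siCPEB1 and 13.1 in siControl, a log2 ratio of 1.24, and was at least 1.47-fold higher with siControl set at the median. The third was near the floor of the array in both, with 1.35 in siCPEB1 and 0.824 in siControl. The bright probe set was above the median on both arrays, and its ratio was larger than the SD of 0.32 between probe sets of that brightness. It is of the _s_at type, which may cross-hybridize, and it alone stood for Bmf where the median was required on both arrays. With 16 added to every signal, the log2 ratio was 0.70 for Bik and 0.70 for Bmf at 1422995_at, the probe set that stands for the gene, neither past 2-fold.

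Bcl2l11 encodes BIM, which binds all the main anti-apoptotic members. At its measured probe sets the signals were 69.8, 49.6 and 39.8 in siCPEB1, against 39.5, 31.6 and 21.2 in siControl, with log2 ratios of 0.78, 0.61 and 0.87. These 3 were higher in siCPEB1 and reached the median on both arrays, whereas the remaining probe sets were below it on both. None of the 3 reached 2-fold, and the SD between probe sets at these signals was 0.41 to 0.47.

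Bad, whose protein neutralizes BCL-XL and is switched off by growth factor kinases, was well above the median on both arrays. Its probe sets had 519 and 424 in siCPEB1, against 296 and 258 in siControl, with log2 ratios of 0.77 (1.70-fold) and 0.68 (1.60-fold). Both therefore lay above the siControl signal by more than the SD of 0.30 or less between probe sets of this brightness. Hrk, or Harakiri, a neuronal BH3-only gene, had a measured signal of 40.1 in siCPEB1 and 25.1 in siControl, a log2 ratio of 0.64, while its other probe set was below the median on both arrays with 3.36 in siCPEB1 and 18.7 in siControl.

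The other BH3-only genes did not share this. Bbc3, which encodes PUMA, a strong p53-induced killer, had nearly equal signals of 126 in siCPEB1 and 127 in siControl. Bid, which links death receptors to the mitochondrion once caspase-8 has cut it, had 178, 51.4 and 40.0 in siCPEB1, against 242, 88.8 and 52.6 in siControl, so all 3 of its probe sets were lower in siCPEB1, with log2 ratios of -0.49, -0.83 and -0.43. Pmaip1, which encodes the p53 target NOXA, was not measurable, at 0.467 in siCPEB1 and 0.896 in siControl.

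**Figure D2:**
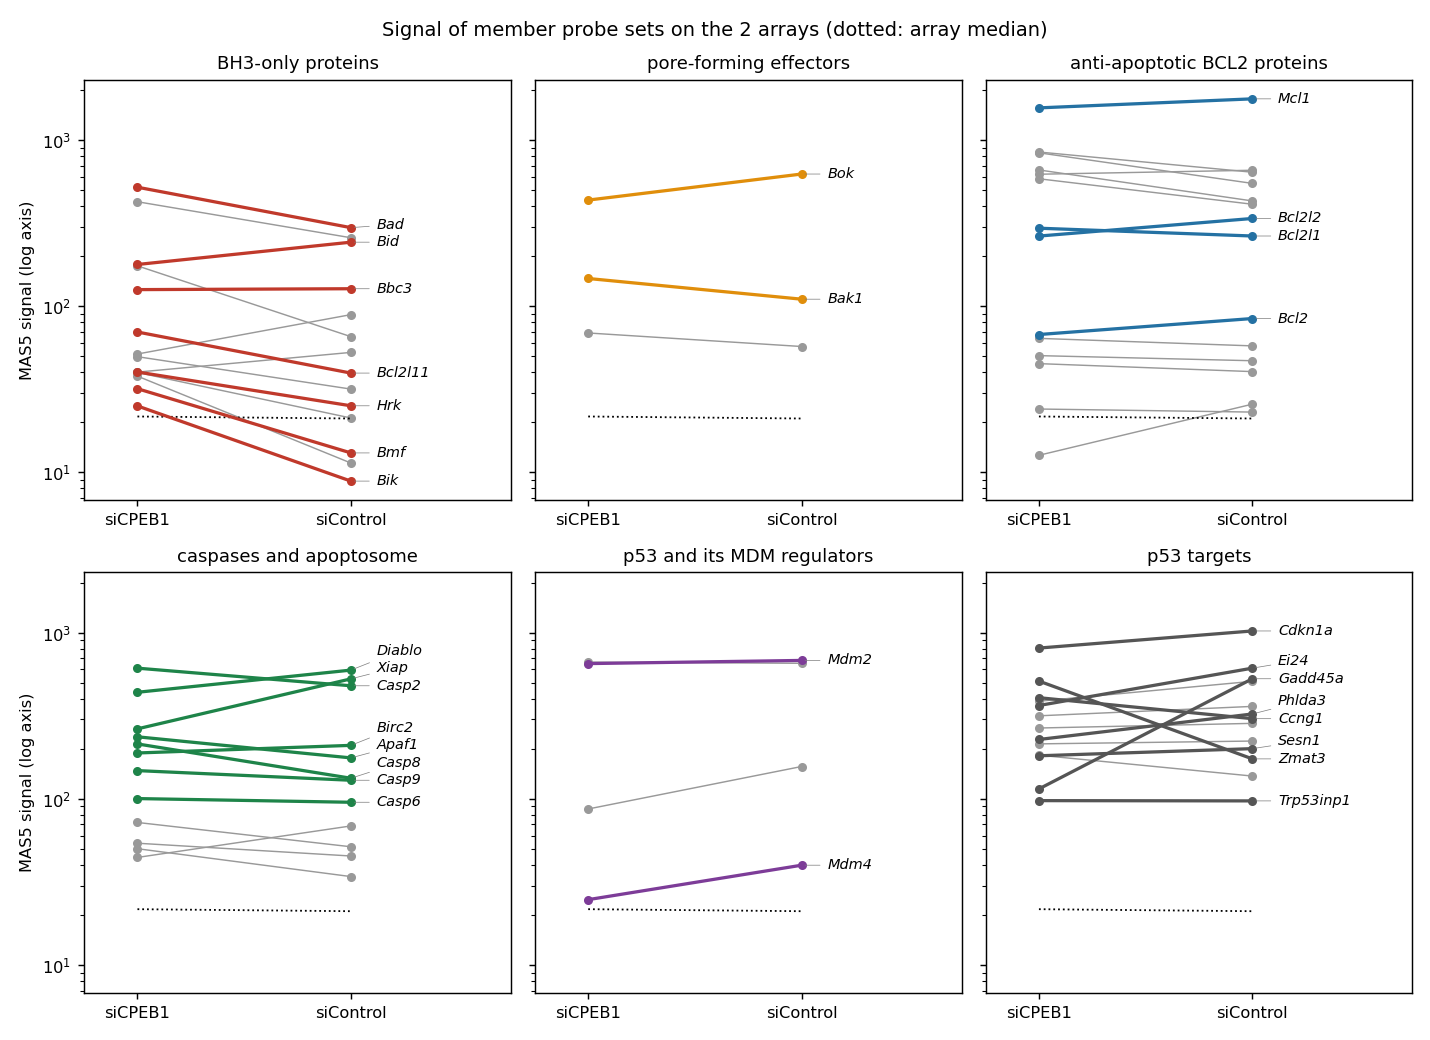
MAS5 signal (log y axis) on the siCPEB1 array and the siControl array (x axis) for each measured probe set, in 1 panel for each role, with coloured lines for the probe set that stands for a gene, grey lines for its other probe sets and a dotted line at the array median. Lines of Bik and of the dimmer Bmf probe set cross the median, those of Bad and of the brighter Bmf probe set stay above it, and Zmat3 and Gadd45a cross each other steeply.

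Of the pore-forming effectors, Bak1, which encodes BAK, had signals of 147 and 68.9 in siCPEB1, against 110 and 57.1 in siControl, with log2 ratios of 0.37 and 0.23. Bok, a relative that permeabilizes the membrane without needing activation by BH3-only proteins, had 434 in siCPEB1 and 623 in siControl, a log2 ratio of -0.56. Neither reached 1.5-fold, and they lay on opposite sides of 0.

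The anti-apoptotic BCL2 proteins bind BH3-only proteins and effectors and so keep the membrane closed. None of the 4 genes reached 1.5-fold at the probe set that stands for it, and the median log2 ratio was -0.29. This median depended on the probe set chosen, because the mean over each gene's measured probe sets gave 0.006. Mcl1, which encodes a short-lived anti-apoptotic protein, shows why the choice mattered. Its 3 unique probe sets had signals of 1559, 846 and 621 in siCPEB1, against 1767, 639 and 657 in siControl, with log2 ratios of -0.22, 0.36 and -0.12. Its 3 probe sets of the _x_at type, which may cross-hybridize, had 836, 659 and 584 in siCPEB1, against 547, 429 and 410.0 in siControl, and ratios of 0.57, 0.58 and 0.47. The brightest probe set thus lay on the other side of 0 from most of the rest.

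Bcl2l1, which encodes BCL-XL, was nearly level at its 3 measured probe sets, with 294, 45.0 and 24.0 in siCPEB1, against 264, 40.3 and 23.0 in siControl. Bcl2l2, which encodes BCL-W, had 264, 63.9 and 50.3 in siCPEB1, against 337, 57.6 and 46.9 in siControl, so that the brightest probe set was lower (-0.39) and the others slightly higher (0.11 and 0.06). Bcl2, the founding member of the family, had 67.4 in siCPEB1 and 84.1 in siControl, a log2 ratio of -0.36. A dimmer Bcl2 probe set, 1437122_at, had 12.6 in siCPEB1 and 25.7 in siControl and was at least 1.22-fold lower with siCPEB1 set at the median. This dimmer probe set passed the filter through siControl alone, so it had to be lower in siCPEB1. The ratio of the brighter one was about as large as the SD of 0.36 between probe sets of its brightness. The other 3 Bcl2 probe sets were below the median on both arrays.

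Downstream of the pore, all 8 genes of the caspase and apoptosome group were measured, with a median log2 ratio of 0.09, 1 gene more than 2-fold lower and 1 more than 1.5-fold higher. Xiap, which encodes the X-linked inhibitor of initiator and executioner caspases, was the lower one. Its brightest probe set, 1437533_at, had a signal of 263 in siCPEB1 and 527 in siControl, a log2 ratio of -1.04 (2.06-fold lower). The other measured Xiap probe sets disagreed, with 44.3 in siCPEB1 and 68.6 in siControl (-0.67) at 1456088_at but 50.04 in siCPEB1 and 34.01 in siControl (0.52) at 1450232_at. Averaged over the 3, the log2 ratio was -0.40 and Xiap was not past 2-fold, nor was it with signals as deposited or with 16 added. Its other 4 probe sets were below the median on both arrays.

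Casp8, the initiator caspase of death receptors and the enzyme that cuts BID, had 214 in siCPEB1 and 133 in siControl at its only probe set, a log2 ratio of 0.65 (1.56-fold higher). Apaf1, the scaffold of the apoptosome, had 236 and 72.0 in siCPEB1, against 176 and 51.4 in siControl, with log2 ratios of 0.38 and 0.45. Casp9, the initiator caspase that APAF1 recruits, had 148 and 54.0 in siCPEB1, against 129 and 45.2 in siControl, with ratios of 0.15 and 0.22. The measured probe sets of these 3 genes were thus higher in siCPEB1, none by 2-fold. The Casp9 ratios were smaller than the SDs of 0.32 and 0.41 between probe sets of that brightness, and those of Apaf1 little larger than 0.31 and 0.41. Of all 8 genes in the group, 5 lay above 0 and 3 below, where 5825 of all genes lay above and 5721 below. Casp2, a caspase that the PIDDosome activates, had 611 in siCPEB1 and 479 in siControl (0.31), and Casp6, an executioner, had 100.2 in siCPEB1 and 95.3 in siControl (0.03). Diablo, the mitochondrial antagonist of XIAP, had 437 in siCPEB1 and 595 in siControl, a log2 ratio of -0.48, and Birc2, which encodes the ubiquitin ligase cIAP1, had 189 in siCPEB1 and 209.6 in siControl (-0.19). Neither reached 1.5-fold, while the dim second probe set of Diablo, at 21.1 in siCPEB1 and 2.36 in siControl, gave the opposite sign below the median of both arrays.

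Of the p53 regulators, Mdm2, the ubiquitin ligase that degrades p53 and is itself a p53 target, was level. Its measured probe sets had 651 and 665 in siCPEB1, against 680.1 and 654 in siControl, with log2 ratios of -0.10 and -0.02. Mdm4, a relative that blocks the activating domain of p53, was lower at both measured probe sets, with 24.7 and 86.8 in siCPEB1, against 39.8 and 156 in siControl. The Mdm4 log2 ratios were -0.73 (1.66-fold lower) and -0.89 (1.85-fold lower), short of 2-fold.

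The p53 targets did not differ in a common direction. Of 12 genes, 8 were measured, with 2 above 0 and 6 below, a median log2 ratio of -0.28, and, at 1 probe set a gene, the largest ratios of either sign among the 31 measured genes. Gadd45a, a growth arrest and DNA damage gene that stress pathways other than p53 also induce, was the lowest, with a signal of 115 in siCPEB1 and 528 in siControl, a log2 ratio of -2.24 (4.73-fold lower). Zmat3, or Wig1, an RNA-binding zinc finger protein, was the highest, with 511 in siCPEB1 and 174 in siControl, a log2 ratio of 1.52 (2.86-fold higher). Each rests on a single probe set well above the median on both arrays, where the SD between probe sets of a gene was 0.30. Across the scalings and the offset, Gadd45a lay between -2.24 and -2.08 and Zmat3 between 1.45 and 1.56, and the filters and choices of probe set could not alter genes with a single bright probe set.

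The remaining targets lay closer to 0. Ei24, a protein of the endoplasmic reticulum that takes part in autophagy, had 364 in siCPEB1 and 611 in siControl, a log2 ratio of -0.79 (1.73-fold lower). Phlda3, a repressor of AKT, had 227 in siCPEB1 and 324 in siControl (-0.55). Cdkn1a, which encodes the cell cycle inhibitor p21, had 807 and 386 in siCPEB1, against 1023 and 509 in siControl, with log2 ratios of -0.38 and -0.44. Both p21 probe sets were lower in siCPEB1, by about the same amount. Ccng1, cyclin G1, had 406, 183 and 214 in siCPEB1, against 303, 137 and 222 in siControl, higher at the first 2 (0.38 each) and level at the third (-0.10). Sesn1, a sestrin that restrains mTORC1, had 181, 316 and 267 in siCPEB1, against 200.3, 360 and 284 in siControl, and Trp53inp1, which promotes p53 phosphorylation, had 97.4 in siCPEB1 and 97.1 in siControl. Neither reached 1.5-fold at any measured probe set.

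The other 4 targets could not be measured, since every probe set was below the array median on both arrays. Fas, the death receptor, had 13.7 in siCPEB1 and 4.49 in siControl, and Perp, a desmosomal membrane protein, had 9.57 in siCPEB1 and 2.17 in siControl. Plk2, a kinase, had 9.29 and 4.36 in siCPEB1, against 1.60 and 1.73 in siControl. These 3 genes were the ones that, with no filter, joined the genes more than 2-fold higher, bringing the count to 6 of 36, where 12.4% of all genes were that much higher without a filter, and the median of the p53 targets to 0.09. Tnfrsf10b, a receptor for TRAIL, had 7.43 and 0.871 in siCPEB1, against 6.19 and 7.88 in siControl. No fold is read from signals this dim.

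Because the p53 targets spanned both directions, the windows around their start sites were searched for p53 half-sites, decamers bound by a p53 dimer. The pattern, which leaves a choice of base at most positions, is its own reverse complement, though a single match need not be. The windows came from RefSeq (GRCm38.p6), ran from 250 bases before to 50 after each start site, and were found for 32 of the 38 genes, not for Bik, Pmaip1, Zmat3, Trp53inp1, Tnfrsf10b or Perp. A half-site was present in 10 of the 32 genes (31.25%) and in 2582 of 27025 genes overall (9.55%). By window the shares were 10 of 46 (21.7%) and 8.36% of 32851, and a gene with several windows had more chances of a match. The genes with a match were 5 of 8 p53 targets with a window and 2 of 3 of p53 and its MDM regulators. They were also 1 of 6 BH3-only genes, 1 of 3 effectors, 1 of 8 caspase and apoptosome genes and 0 of 4 anti-apoptotic genes. The stretches below are those of the gene with the lowest ratio (Gadd45a), of p21 as a classical target, of Ei24 and Mdm2, and of Bmf, the 1 BH3-only gene with a match. Capitals mark the half-site. Distances in bases are those of the first base of the half-site before the start site of its own window, and each stretch begins 10 flanking bases earlier. A gene can have several start sites, and whether the one used here is its main start site was not examined. The Gadd45a stretch is chr6:67037428-67037457 on the minus strand (40 before), and that of Cdkn1a is chr17:29090918-29090947 on the plus strand (51 before). That of Ei24 is chr9:36797325-36797354 on the minus strand (10 before), and that of Mdm2 is chr10:117710925-117710954 on the minus strand (186 before). That of Bmf is chr2:118544781-118544810 on the minus strand (213 before).
Gadd45a: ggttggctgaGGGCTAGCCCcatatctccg
Cdkn1a: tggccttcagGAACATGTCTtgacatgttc
Ei24: cgtgcggcccGGGCATGCCCagtgtgggcg
Mdm2: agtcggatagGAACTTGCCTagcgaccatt
Bmf: cccaagtgaaGGGCTTGCCTcttgccgaat
These 5 genes with a half-site had log2 ratios of -2.24, -0.38, -0.79, -0.10 and 1.24 in the order printed. They are part of the 10 genes with a match among the 32 with a window. Birc2, Ccng1 and Sesn1, also with a match, had -0.19, 0.38 and -0.18. Genes with the match thus lay on both sides of 0 and at a range of distances from it. The same Cdkn1a window held a further match, beginning 73 bases before the start site of that window. A match of letters is a description of the window and does not show binding.

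Other genes of the same pathways were on lists chosen with earlier results of these data known. None of 13 other BCL2 family and mitochondrial death genes, 10 other caspases and inhibitors, 8 death receptor genes or 20 p53 kinases and other regulators was more than 2-fold different. Among all measured genes 4.56% were that much higher and 3.91% lower, so few were to be expected in lists of this size. The medians of these lists were 0.03, 0.10, -0.22 and 0.08, within the quartiles of all genes (-0.31 and 0.32). Of the 8 death receptor genes, 2 lay above 0 and 6 below, and 2 were more than 1.5-fold lower, where 12.1% of all genes were. Cycs, which encodes cytochrome c, had 7252 in siCPEB1 and 7485 in siControl. Hipk2, a kinase that phosphorylates p53, came closest to 2-fold among the genes of these lists, with 262 in siCPEB1 and 128 in siControl (0.998). Its other 5 measured probe sets gave 0.90, 0.67, 0.52, 0.36 and, at the opposite sign, -0.13.

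Of 33 other p53 targets, 3 were more than 2-fold lower in siCPEB1 and none was more than 2-fold higher, with a median of 0.09. Among all measured genes 3.91% were that much lower and 4.56% higher, so few genes separate these counts from the background shares. Cyfip2, a subunit of the WAVE complex that also binds FMRP, had 67.9 and 72.9 in siCPEB1, against 205.6 and 193 in siControl, with log2 ratios of -1.64 and -1.44. Ddit4, or REDD1, a stress-induced inhibitor of mTORC1, had 901 in siCPEB1 and 2287 in siControl, a log2 ratio of -1.38. Steap3, a ferrireductase, had 11.1 in siCPEB1 and 38.1 in siControl and was at least 1.81-fold lower with siCPEB1 set at the median. It had passed through siControl alone, and with the median required on both arrays 2 of the other p53 targets remained more than 2-fold lower, Cyfip2 and Ddit4. Among 14 transcription factors that bind promoters of the BCL2 family, 1 was more than 2-fold higher and 1 lower, with a median of 0.29. The same background shares apply to these counts. Ddit3, or CHOP, a factor of the endoplasmic reticulum stress response, had 888 and 25.8 in siCPEB1, against 2213 and 59.4 in siControl, with log2 ratios of -1.36 and -1.24. Mycn, the oncogene of neuroblastoma, had 759 in siCPEB1 and 296 in siControl at its brightest probe set (1.32), but 134 in siCPEB1 and 82.5 in siControl (0.66) and 18.0 in siCPEB1 and 34.4 in siControl (-0.97) at the others. The Mycn probe sets thus disagreed in sign, while those of Ddit3 and Cyfip2 did not.

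**Figure D3:**
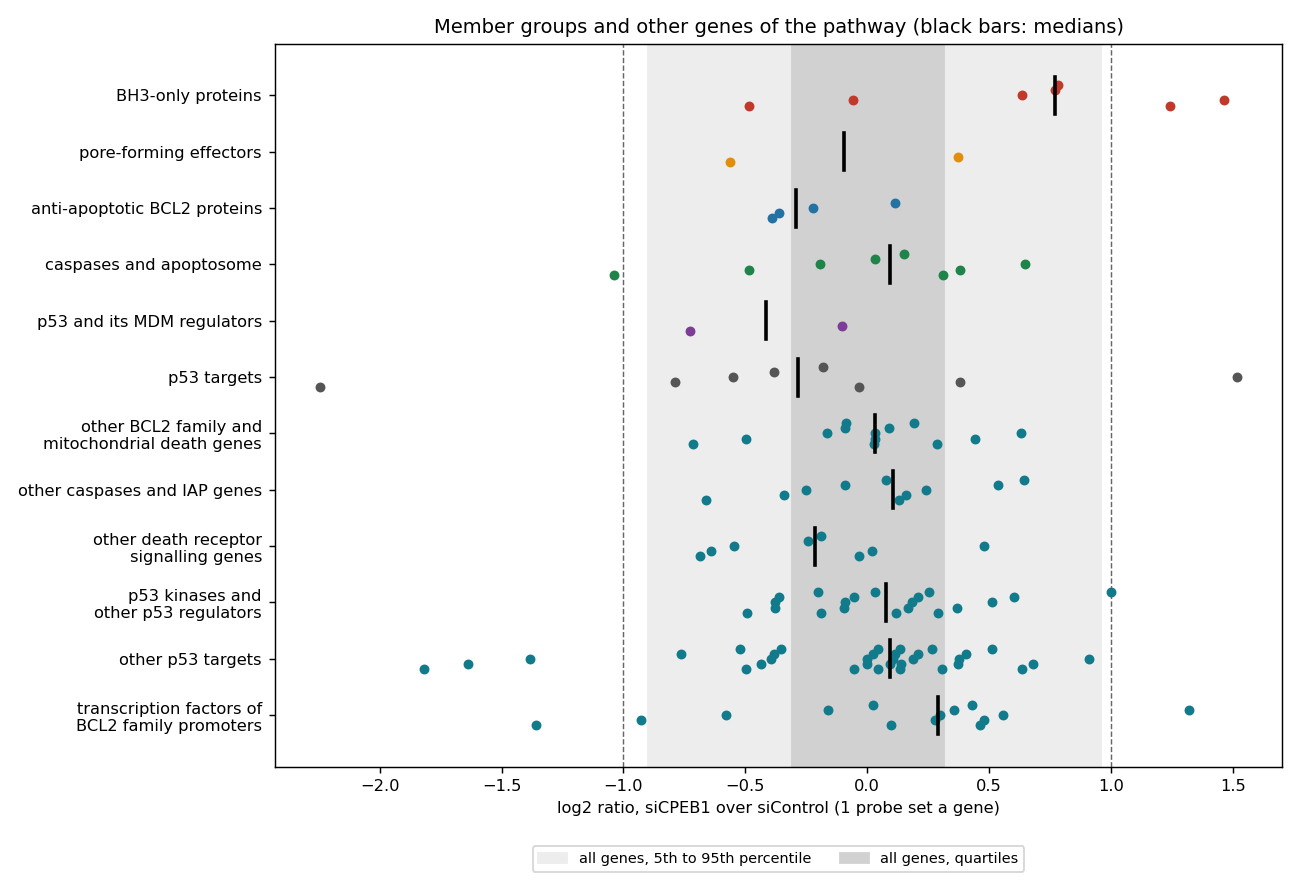
Log2 ratio of siCPEB1 over siControl (x axis, 1 probe set a gene) for the 6 role groups and the 6 lists of other pathway genes (rows), with a point for each measured gene, black bars at the medians, grey bands for the quartiles and the 5th to 95th percentile of all 11546 genes, and dashed lines at 2-fold. Of the rows plotted, the BH3-only median of 0.77 lies furthest from 0, and the other medians lie between -0.42 and 0.29.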

How the data were processed

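RNA of 1 siCPEB1 and 1 siControl Neuro2a culture was measured on 1 Affymetrix mouse array each. The deposited values are probe set intensity on a linear scale, which the authors computed with MAS5 in Affymetrix Expression Console. The version, the scaling target and detection calls are not given in the sources used here, and 0 columns belonged to no sample. Symbols came from the platform annotation, with 34958 probe sets naming 1 gene, 932 several and 9211 none, and genes were named only where there was 1. After 64 control probe sets were left out, 23655 of 45037 passed the filter on signal. A gene was represented by its brightest passing probe set, by preference not _x_at or _s_at. The members and lists were chosen with earlier results of these data known. All 38 members are named, with the signals of every passing probe set for those past 1.5-fold, and up to 4 genes past 2-fold of each other list. Cycs, Hipk2 and some further markers are named besides and were chosen after their values were seen. The alternatives were 4 other scalings (loess span 0.3), an offset of 16, 3 other filters, 2 other choices of probe set and a fold of 1.5, and 2 more (dim signals set at the median, and the brightest probe set whatever its suffix) were chosen after seeing the data. With 1 array a group, no test was run, and the number of arrays limits the precision. The probe set ratios under the scalings were tested on simulated data, with changes of more than 2-fold planted at bright probe sets. Smaller folds, dim signals, the choice of probe set and the promoter search were not covered by it. Tables were handled with pandas 2.3.3 and numpy 2.4.6 in Python 3.11.15, loess came from statsmodels 0.14.6 and figures from matplotlib 3.10.9. A planned search of protein sequences was not made.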

Additional observations from a re-analysis of the deposited data

How the results depend on the processing

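No paired analysis was possible because each group holds 1 array. A count was taken as moved past 1.5 times, and a median when it shifted by more than the probe set SD divided by the square root of the number of genes. Genes more than 2-fold higher among all numbered 527, and 273 with 16 added, 2252 with no filter, 288 at the median on both arrays, 167 at the 75th percentile on at least 1 array and 1377 at 1.5-fold. Those lower numbered 452, and 254 with 16 added, 1820 with no filter, 249 at the 75th percentile and 1401 at 1.5-fold. Of the pathway genes, 3 were higher, against 1 with 16 added, 6 with no filter, 7 at 1.5-fold and 1 with dim signals set at the median. The 2 lower became 1 with no further scaling, with 16 added and with the mean of probe sets, and 4 at 1.5-fold. The 5 BH3-only genes past 1.5-fold became 2 at the 75th percentile and 3 with dim signals at the median. The BH3-only median (0.77) was 0.61 with 16 added and 0.56 with dim signals at the median. The median over the pathway genes (-0.06) was -0.21 at the 75th percentile (22 genes), that of the anti-apoptotic genes (-0.29) was 0.0060 with the mean of probe sets, and that of the p53 targets (-0.28) was 0.093 with no filter. The effector median (-0.09) was -0.56 at the 75th percentile and 0.37 without _x_at, _s_at and _a_at probe sets, and that of the MDM genes (-0.42) was -0.73 without them, each on 1 gene. Of single genes, Bik and Bmf gave 0.70 with 16 added and 0.21 and 0.56 with dim signals at the median, Ccng1 -0.10 without these suffixes, and Mcl1 0.27 and Xiap -0.40 with the mean of probe sets. The other 352 comparisons of a single gene with its main value moved by less than the spread between probe sets, and 0 called ratios changed sign. Many of these could not move, because a filter or choice of probe set that keeps the same probe set returns the same ratio. Where a setting removed genes or probe sets this is its construction, and otherwise the cause was not tested. Signals near the array median limit Bik, Hrk, Steap3 and the dimmer probe set of Bmf, for which the ratio is uncertain.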
